A study of Mus musculus with 13 samples.

Results

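The genes described here were 8 transcription factors of joints and the intervertebral disc (IVD): Erg, Trps1, Barx1, Nfatc1, Nfatc2, Nfatc4, Osr1 and Osr2. They were taken by gene symbol, as every probe set whose annotated symbol was exactly one of these names. This gave 25 of the 45037 probe sets measured, with 2 for Erg, 4 for Trps1, 1 for Barx1, 5 for Nfatc1, 6 for Nfatc2, 4 for Nfatc4, 1 for Osr1 and 2 for Osr2. Several of these genes were chosen by their values on the same arrays, as high in control IVD relative to control vertebrae or as low in Tgfbr2 mutant IVD relative to control IVD. Values in those comparisons are therefore a description and carry no p-value.

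RNA came from presumptive lumbar IVD and vertebrae of E13.5 mouse embryos, taken by laser capture, amplified and hybridized to 13 arrays. There were 4 arrays of mutant IVD (Cre+;Tgfbr2lox/lox), 3 of control IVD (Cre-;Tgfbr2lox/wt), 3 of mutant vertebrae (labelled Cre+;Tgrbr2lox.lox) and 3 of control vertebrae (Cre-;Tgfbr2lox/wt). In mutants, Cre driven by the Col2a promoter removed an exon of Tgfbr2, the TGF-β type II receptor, so deletion is limited to cells in which that promoter was active. Controls carried a floxed allele without Cre. Per the labels, both control tissues were taken from 1 set of mice, and according to the methods the captured IVD was mostly presumptive annulus fibrosus with a little notochord. The deposited values are log2 signals whose median over the 13 arrays is 0 for every probe set. A value of 1 is thus 2-fold above that median, and levels of different genes cannot be compared. In such bulk samples, fewer cells of a type and less RNA per cell cannot be told apart.

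Synovial joints and the IVD both form where mesenchyme between cartilage elements stays out of cartilage differentiation. Erg is an ETS family factor found in joint interzones and articular cartilage, and in endothelium. Trps1 is a GATA-type zinc finger repressor that acts in chondrocytes, and its mutation in humans causes a skeletal syndrome with cone-shaped epiphyses. Barx1 is a homeobox factor of facial and joint mesenchyme. The Nfatc proteins enter the nucleus once calcineurin has removed their phosphates, and Osr1 and Osr2 are odd-skipped zinc finger factors expressed in joint-forming and connective tissue mesenchyme.

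Several arrays stood apart. In mutant vertebrae 1, 16.0% of probe sets lay more than 1 log2 unit from their median, against 1.56% to 4.63% in the other 12 arrays. Mutant IVD 3 and control vertebrae 3 had the highest means of 15 neuronal genes (3.19 and 2.43, against at most 0.66 elsewhere). Mutant IVD 3 also had the lowest mean in its group of 12 fibrous disc genes (-1.28, against 0.45 to 1.20 in the other mutant IVD). Liver genes were high in mutant IVD 3 and 4, control IVD 1 and control vertebrae 1 (2.78 to 5.48, against at most 0.22 elsewhere). Means of 15 skeletal muscle genes were highest in mutant IVD 4 and control IVD 1 (1.95 and 1.86). Xist was high in all 6 control arrays, mutant IVD 3 and mutant vertebrae 3, and Y-linked genes were high in the other 5 mutant arrays, so sex and genotype were largely confounded. Of 15 cartilage genes, 13 were lower in control IVD relative to vertebrae, and 11 of 12 fibrous disc genes were higher there. The 3 Tgfbr2 probe sets differed by -0.02 to 0.25 between mutant and control IVD. Between mutant and control vertebrae they differed by 0.13, -0.01 and -0.84, the last with mutant vertebrae 1 at -2.10. Whether they read the deleted exon is not known, so they do not check the labels.

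Promoter windows are shown for Erg, because its 2 probe sets behaved differently and it has several annotated starts, and for Barx1, which was high in control IVD and nearly flat over the vertebrae. Windows run from 250 bases before to 50 after a start, from RefSeq on GRCm38.p6, and 4 of the 8 genes had at least 1 (7 windows in all). 3 short motifs were searched on both strands: the Smad box CAGAC, the NFAT core GGAAAA and the ETS core CCGGAA. Capitals mark matches to them. Erg lies at chr16:95359169-95586600 and Barx1 at chr13:48663036-48666507.
Erg, window chr16:95586544-95586843, minus strand: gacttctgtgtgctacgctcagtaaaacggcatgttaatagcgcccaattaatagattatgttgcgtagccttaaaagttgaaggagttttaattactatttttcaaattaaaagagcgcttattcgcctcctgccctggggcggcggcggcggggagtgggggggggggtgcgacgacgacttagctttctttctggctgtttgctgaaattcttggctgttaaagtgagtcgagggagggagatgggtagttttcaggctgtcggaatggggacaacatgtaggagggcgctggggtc
Erg, window chr16:95530316-95530615, minus strand: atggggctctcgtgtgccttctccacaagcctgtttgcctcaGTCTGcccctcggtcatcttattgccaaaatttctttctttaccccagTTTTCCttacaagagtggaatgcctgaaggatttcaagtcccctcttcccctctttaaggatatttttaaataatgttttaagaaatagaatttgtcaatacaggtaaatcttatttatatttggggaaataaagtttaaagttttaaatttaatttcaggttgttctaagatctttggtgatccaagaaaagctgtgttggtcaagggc
Erg, window chr16:95459299-95459598, minus strand: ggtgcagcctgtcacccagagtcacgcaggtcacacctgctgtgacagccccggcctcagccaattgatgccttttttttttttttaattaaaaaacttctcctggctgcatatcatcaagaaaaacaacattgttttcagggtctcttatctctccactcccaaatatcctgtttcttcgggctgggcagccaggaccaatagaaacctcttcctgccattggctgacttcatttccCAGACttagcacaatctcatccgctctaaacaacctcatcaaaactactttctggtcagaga
Barx1, window chr13:48662786-48663085, plus strand: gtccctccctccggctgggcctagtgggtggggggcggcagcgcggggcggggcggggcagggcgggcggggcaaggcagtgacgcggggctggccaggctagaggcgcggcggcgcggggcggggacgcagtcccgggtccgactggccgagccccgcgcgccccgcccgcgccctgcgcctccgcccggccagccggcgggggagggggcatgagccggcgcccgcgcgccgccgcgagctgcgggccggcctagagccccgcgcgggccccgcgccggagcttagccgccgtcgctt
The middle Erg window held a Smad box 208 bases and an NFAT core 160 bases before the start, both in reverse orientation. The Erg window printed after it held a Smad box 12 bases before the start. The first Erg window and the Barx1 window, which was 84.7% G and C, held none of these letters. Over the 7 windows, 3 held a Smad box, 2 an NFAT core and 0 an ETS core, against 49.6%, 23.4% and 14.9% of 32851 promoter windows of the same length. A match is a description of the sequence and not a binding site. The start that each Erg probe set reads is not given in the sources used here.

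Erg 1440244_at was the 1 probe set of the 25 with a mean at least 2-fold below control in both mutant tissues. It had log2 values of 0.44, 0.16, -2.06 and 0.67 in mutant IVD, against 0.73, 1.42 and 1.28 in control IVD. In mutant vertebrae it had -3.75, -1.94 and -1.31, against -0.45, 0.00 and -0.73 in control vertebrae. Mutant IVD lay below control IVD only narrowly (highest 0.67 against lowest 0.73), in a comparison used in choosing the genes. How many of all probe sets were so placed was not counted. Every mutant vertebrae array was below every control vertebrae array, a placing found in 1.93% of all probe sets. Mutant IVD 3 lay among the mutant vertebrae, so those 2 groups overlapped. The means were -0.20 ± 1.26 (SD, n = 4) in mutant IVD, 1.14 ± 0.37 (n = 3) in control IVD, -2.34 ± 1.27 (n = 3) in mutant vertebrae and -0.39 ± 0.37 (n = 3) in control vertebrae. The other Erg probe set, 1425370_a_at, ranged only between -0.53 and 0.64 over all arrays and correlated with the first at r = 0.12 (Pearson, 13 arrays). The pattern of Erg therefore rests on 1 of its 2 probe sets. Averaged over both, Erg differed by -0.65 between mutant and control IVD and by -1.06 between mutant and control vertebrae.

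**Figure D1:**
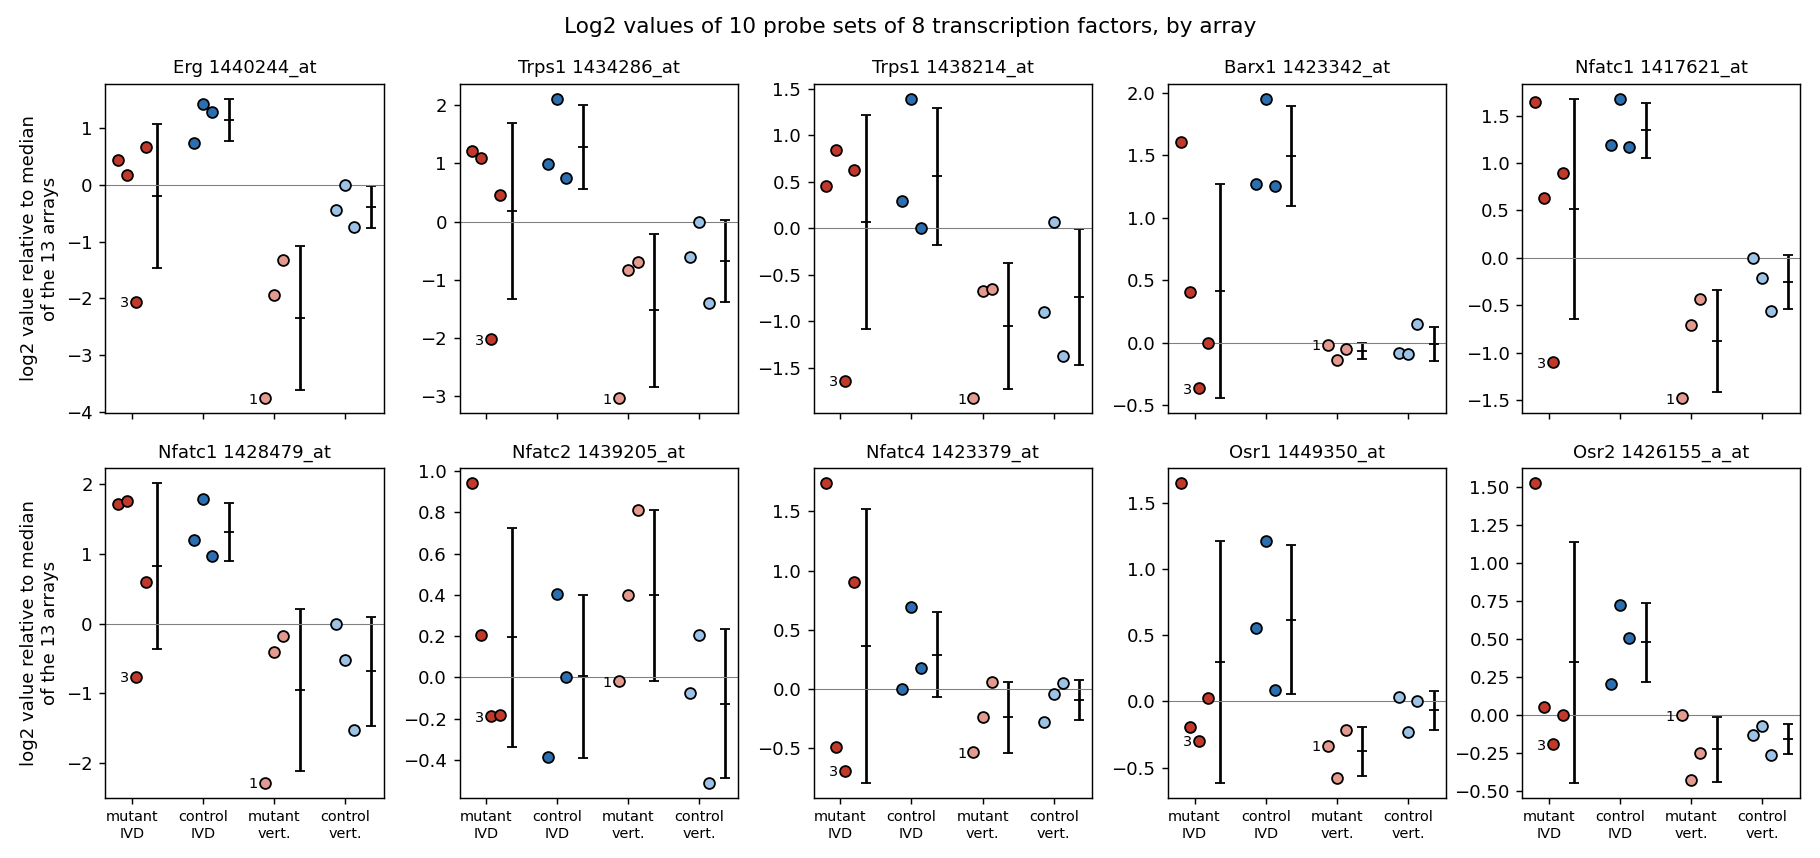
Log2 values of 10 probe sets of the 8 genes (vertical axes, relative to the median of the 13 arrays) in each array, by group; bars give the mean and SD of the group. The digits 3 and 1 mark mutant IVD 3 and mutant vertebrae 1, which hold the lowest Erg value of their groups at -2.06 and -3.75.

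Trps1 was read by 4 probe sets that moved together, with correlations of 0.90 to 0.97 over the 13 arrays. Probe set 1434286_at had 1.21, 1.09, -2.02 and 0.45 in mutant IVD, against 0.99, 2.11 and 0.75 in control IVD. It had -3.03, -0.83 and -0.69 in mutant vertebrae, against -0.61, 0.00 and -1.40 in control vertebrae. Control IVD lay above control vertebrae without overlap, while mutant IVD 3 sat below all but 1 of the vertebrae arrays. Probe set 1438214_at had 0.46, 0.84, -1.64 and 0.63 in mutant IVD and 0.29, 1.40 and 0.00 in control IVD. It had -1.83, -0.67 and -0.65 in mutant vertebrae and -0.90, 0.07 and -1.38 in control vertebrae. For this probe set the control tissues overlapped, since control vertebrae 2 lay just above control IVD 3. The other Trps1 probe sets, 1449530_at and 1457445_at, also had their lowest value in mutant vertebrae 1, at -3.51 and -1.61.

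The 5 Nfatc1 probe sets differed in size, but all were higher in control IVD relative to control vertebrae. Probe set 1417621_at had 1.65, 0.63, -1.10 and 0.90 in mutant IVD, against 1.19, 1.68 and 1.17 in control IVD. It had -1.48, -0.71 and -0.44 in mutant vertebrae, against 0.00, -0.21 and -0.56 in control vertebrae. Without mutant IVD 3, every IVD array was above every vertebrae array. Probe set 1428479_at had 1.72, 1.76, -0.76 and 0.60 in mutant IVD and 1.20, 1.79 and 0.97 in control IVD. It had -2.29, -0.41 and -0.17 in mutant vertebrae and 0.00, -0.52 and -1.53 in control vertebrae. Here too mutant IVD 3 alone among the IVD arrays lay within the vertebrae. The 3 others, 1425761_a_at, 1447084_at and 1447085_s_at, differed by 0.51, 0.90 and 0.60 on the log2 scale between control IVD and control vertebrae.

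Barx1, with its only probe set 1423342_at, had the narrowest range over the vertebrae arrays of the 10 probe sets given array by array. It had 1.61, 0.40, -0.36 and 0.00 in mutant IVD, against 1.27, 1.95 and 1.25 in control IVD. In mutant vertebrae it had -0.02, -0.14 and -0.05, against -0.09, -0.09 and 0.15 in control vertebrae. Mutant IVD was spread from the level of control IVD (array 1) to that of the vertebrae (arrays 3 and 4), and it overlapped both. The SD was 0.86 in mutant IVD (n = 4) and 0.40 in control IVD (n = 3), against 0.06 in mutant vertebrae and 0.14 in control vertebrae (n = 3 each).

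Osr1 and Osr2 probe set 1426155_a_at followed each other (r = 0.91 over 13 arrays) and differed less between the tissues. Osr1 had 1.65, -0.19, -0.30 and 0.03 in mutant IVD and 0.55, 1.21 and 0.09 in control IVD. It had -0.34, -0.58 and -0.22 in mutant vertebrae and 0.04, -0.23 and 0.00 in control vertebrae. Osr2 probe set 1426155_a_at had 1.53, 0.06, -0.19 and 0.00 in mutant IVD and 0.21, 0.72 and 0.51 in control IVD. It had 0.00, -0.43 and -0.25 in mutant vertebrae and -0.13, -0.07 and -0.26 in control vertebrae. For both of these probe sets control IVD lay above control vertebrae without overlap (only narrowly for Osr1), and mutant IVD 1 was the highest of all arrays. The second Osr2 probe set, 1430950_at, stayed between -0.18 and 0.39 and correlated with Osr1 at r = 0.055. The pattern of Osr2 therefore rests on 1 of its 2 probe sets.

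Nfatc4 and Nfatc2 differed by less than 1.5-fold between the control tissues on every probe set. Nfatc4 probe set 1423379_at had 1.74, -0.49, -0.70 and 0.90 in mutant IVD and 0.00, 0.69 and 0.17 in control IVD. It had -0.54, -0.24 and 0.06 in mutant vertebrae and -0.28, -0.05 and 0.05 in control vertebrae. Mutant IVD held both the highest and the lowest arrays, and all groups overlapped. Nfatc2 probe set 1439205_at had 0.94, 0.20, -0.19 and -0.18 in mutant IVD and -0.39, 0.40 and 0.00 in control IVD. It had -0.02, 0.40 and 0.81 in mutant vertebrae and -0.08, 0.20 and -0.51 in control vertebrae, with overlap throughout. Over the 6 Nfatc2 probe sets the difference between control tissues was -0.20 to 0.13, and over the 4 of Nfatc4 it was 0.09 to 0.43.

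**Figure D2:**
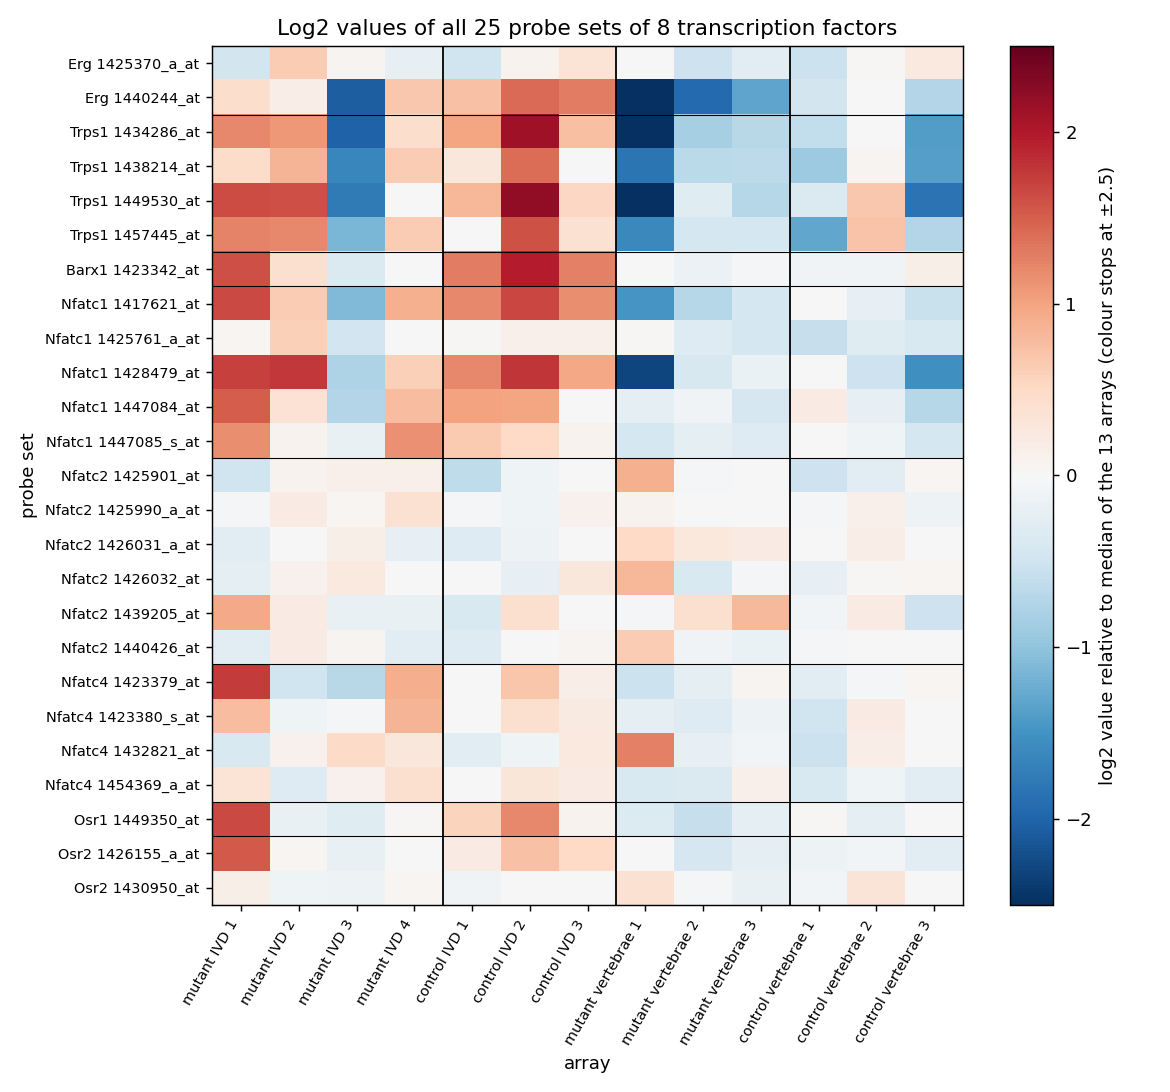
Log2 values of all 25 probe sets (rows, by gene) in the 13 arrays (columns, by group), in colour from blue (low) to red (high). Erg 1440244_at, the 4 Trps1 and most Nfatc1 probe sets are mostly red in control IVD and blue in mutant vertebrae 1, where Erg reached -3.75, while the Nfatc2 rows are paler.

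The first comparison asked which of these factors mark the IVD in control mice. It helped to choose the genes and is given without a test. Nfatc1 1428479_at was 4.0-fold higher in control IVD relative to control vertebrae (log2 difference 2.0, standard error 0.70) and Trps1 1434286_at 3.87-fold (1.95, standard error 0.84). Nfatc1 1417621_at was 3.04-fold higher (1.60, standard error 0.54), Erg 2.91-fold (1.54, standard error 0.70) and Barx1 2.83-fold (1.5, standard error 0.40). Osr1 and Osr2 were 1.60-fold and 1.55-fold higher. At least 2-fold higher were 8 of the 25 probe sets, namely 1 of Erg, 4 of Trps1, 1 of Barx1 and 2 of Nfatc1, where 0.864% of all probe sets were. In 10 of 25 every control IVD array was above every control vertebrae array, where 3.54% of all probe sets were so placed. Nothing is read from these shares, since the comparison was used in choosing the genes. In the same comparison 14 of 15 neuronal genes (median -0.84) and 15 of 17 endothelial genes (median -0.22) were lower in control IVD. Without control vertebrae 3, the array with high neuronal genes, 6 probe sets were at least 2-fold higher, and Erg 1440244_at and Trps1 1434286_at differed by 1.37 and 1.58. The part of these markers was not tested.

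Control IVD and vertebrae arrays that carry the same number may share a mouse, which the labels leave unsaid. Set side by side, Erg 1440244_at was higher in IVD by 1.18, 1.42 and 2.02 for numbers 1, 2 and 3, and Trps1 1434286_at by 1.60, 2.11 and 2.15. Barx1 was higher by 1.36, 2.05 and 1.10, and Nfatc1 1417621_at by 1.19, 1.89 and 1.73. Each of these genes was thus higher in IVD for all 3 numbers. In all, 17 of 25 probe sets were higher in IVD for each number, where 15.7% of all probe sets were. Nothing is read from this share either, since the same control values were used in choosing the genes.

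The second comparison asked how these factors differed in IVD after deletion of Tgfbr2, and it too was used in choosing. Erg 1440244_at was 2.54-fold lower in mutant IVD relative to control IVD (log2 difference -1.34, standard error 0.65), Trps1 1434286_at 2.14-fold (-1.10, standard error 0.78) and Barx1 2.11-fold (-1.08, standard error 0.37). These were the 3 of 25 probe sets at least 2-fold lower, where 0.384% of all probe sets were. Nfatc1 1417621_at was lower by 1.78-fold and the other Nfatc1 probe sets differed by -0.49 to 0.14. Nfatc2, Nfatc4 and Osr2 differed by at most 0.21 on any probe set, and Osr1 by -0.32. Mutant IVD 3 carried much of this. Without it the differences were -0.72 for Erg, -0.37 for Trps1 and -0.82 for Barx1, and 0 of 25 probe sets were 2-fold lower. Mutant IVD 3 was also the array with the neuronal and low fibrous disc values given above, and over all arrays 15 of 15 neuronal and 16 of 17 endothelial genes had a higher mean in mutant IVD relative to control IVD. Their part in the result was not tested. Without mutant IVD 1 the count was 5, and without control IVD 2 it was 1.

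**Figure D3:**
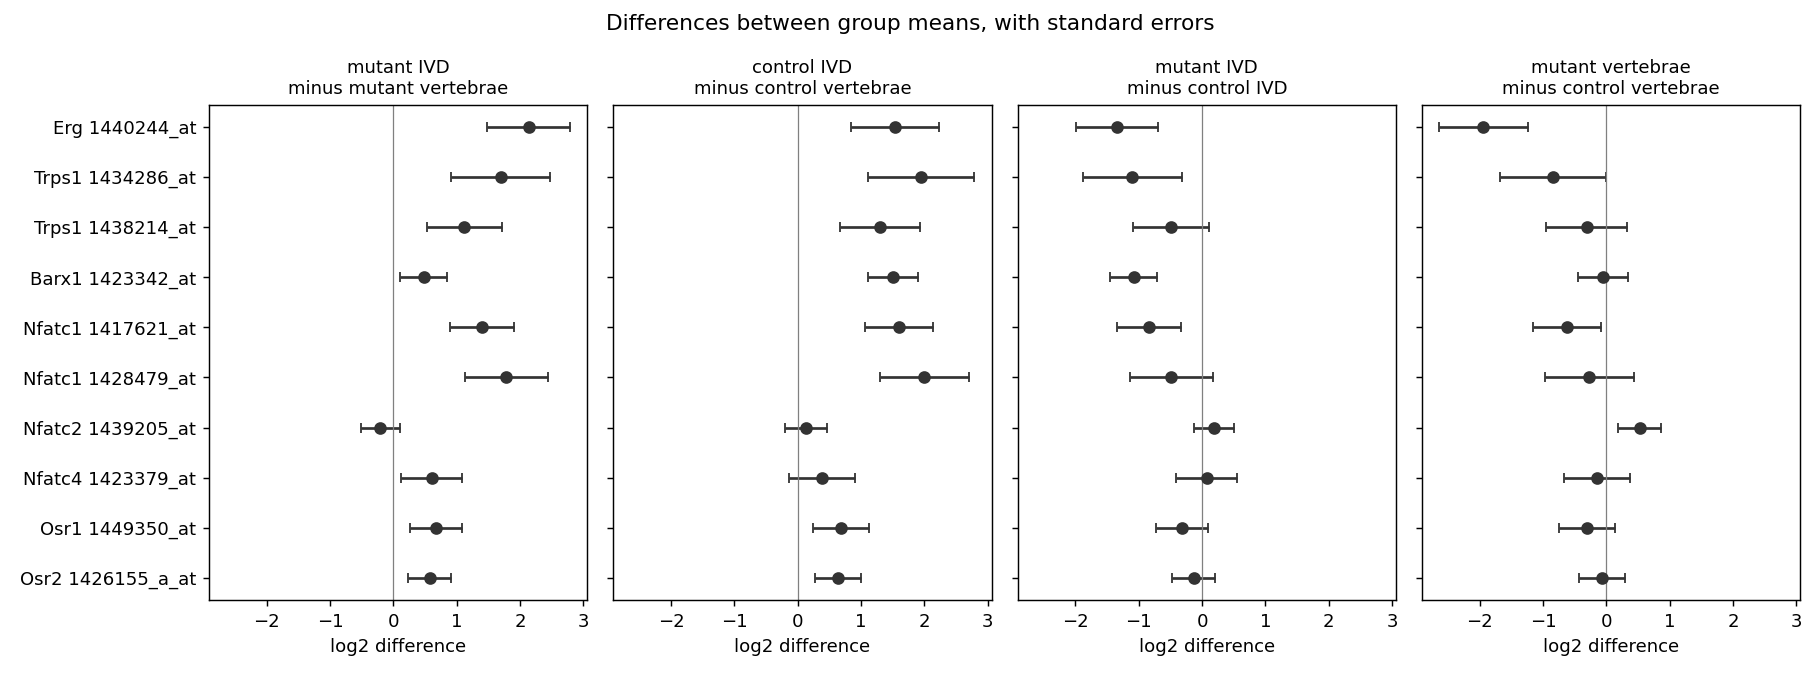
Log2 differences between group means (horizontal axes) for the 10 probe sets, one panel per comparison; bars are standard errors from the fit of all 13 arrays. Erg, Trps1 and Nfatc1 lie right of 0 in both panels of IVD minus vertebrae. These 3 genes, Barx1, Osr1 and Osr2 lie left of 0 in both genotype panels, with Erg furthest left (-1.34 in IVD and -1.94 in vertebrae).

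The third comparison asked whether the tissue difference was present without Tgfbr2. The 2 comparisons above, which helped to choose the genes, used the mutant IVD arrays but not the mutant vertebrae arrays. The members were chosen with earlier results of these data known, so the values here are not fully independent of the choice. Erg 1440244_at was 4.41-fold higher in mutant IVD than in mutant vertebrae (log2 difference 2.14, standard error 0.65, adjusted p = 0.367 by limma with Benjamini-Hochberg adjustment over all probe sets). Nfatc1 1428479_at was 3.44-fold higher (1.78, standard error 0.65, adjusted p = 0.479 by limma) and Trps1 1434286_at 3.25-fold (1.70, standard error 0.78, adjusted p = 0.620 by limma). Barx1 differed by 0.48 (standard error 0.37, adjusted p = 0.780 by limma). Of the 25 probe sets 0 reached the adjusted threshold of 0.05, where 7 of 45037 did (0.0155%). At an unadjusted p under 0.05, 5 of 25 were higher in mutant IVD, where 4.35% of all probe sets were: Erg 1440244_at, Nfatc1 1417621_at, 1428479_at and 1447085_s_at, and Nfatc4 1423380_s_at. Nfatc2 1426031_a_at was the 1 that was lower (log2 difference -0.40, adjusted p = 0.514 by limma), where 3.72% of all probe sets were. By direction alone, 18 of 25 were higher in mutant IVD, against 46.7% of all probe sets, with a median difference of 0.57 against -0.02.

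Both arrays that stood apart entered this comparison. Mutant IVD 3 was the lowest mutant IVD array for Erg 1440244_at and Nfatc1 1417621_at (-2.06 and -1.10). Without it the Erg difference was 2.76 (adjusted p = 0.0494 by limma) and that of Nfatc1 1417621_at was 1.93 (adjusted p = 0.0367 by limma). Leaving out the lowest array of the higher group could only raise these differences, so nothing is read from their passing. Without mutant vertebrae 1 the Erg difference was 1.43 (adjusted p = 0.637 by limma) and that of Trps1 1434286_at 0.94 (adjusted p = 0.864 by limma). Leaving out both mutant IVD 3 and mutant vertebrae 1 was a choice made after seeing the data. Erg then differed by 2.05 (adjusted p = 0.0405 by limma) and Nfatc1 1417621_at by 1.63 (adjusted p = 0.092 by limma). With the neuronal mean as a covariate, Erg differed by 2.74 (adjusted p = 0.0461 by limma) and Trps1 1434286_at by 2.53 (adjusted p = 0.0397 by limma). Of all 45037 probe sets, 7 passed in the main fit. The count was 177 without mutant IVD 3, 78 without both arrays and 105 with the neuronal covariate, so passing was not limited to these genes. Mutant IVD 1 carried much of the smaller differences: without it those of Osr1, Osr2 1426155_a_at, Nfatc4 1423379_at and Barx1 were 0.22, 0.18, 0.15 and 0.08, against 0.67, 0.57, 0.60 and 0.48 with it. Whether the tissue difference itself differed between genotypes is not tested for these genes, as it contains the comparisons that chose them. The tissue differences in mutants and in controls were 2.14 and 1.54 for Erg, 1.70 and 1.95 for Trps1 1434286_at, 1.39 and 1.60 for Nfatc1 1417621_at, and 0.48 and 1.5 for Barx1. Other lists moved here too. In mutant IVD, 17 of 17 endothelial (median 0.34), 15 of 15 neuronal (1.03) and 8 of 8 liver genes (1.53) had a higher mean. So did 11 of 12 fibrous disc genes (median 1.27), while 14 of 15 cartilage genes had a lower one (median -1.13). The endothelial mean ranged between -0.29 and 0.58 in mutant IVD and between -0.50 and 0.06 in mutant vertebrae. The part of any of these lists was not tested.

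The fourth comparison set mutant against control vertebrae, where control vertebrae had been used in choosing. Erg 1440244_at was 3.85-fold lower in mutant vertebrae than in control vertebrae (log2 difference -1.94, standard error 0.70, adjusted p = 0.998 by limma). It was the 1 of 25 probe sets lower at an unadjusted p under 0.05, where 0.873% of all probe sets were, and the 1 whose arrays lay wholly below control vertebrae, where 1.93% were. By limma 0 of 45037 probe sets reached the adjusted threshold (0.0%), and 1177 had an unadjusted p under 0.05. By the unequal-variance test 0 passed and 614 had an unadjusted p under 0.05. Without mutant vertebrae 1 the Erg difference was -1.24 (adjusted p = 1.0 by limma). Trps1 1434286_at differed by -0.85 with that array and by -0.09 without it. The 6 Nfatc2 probe sets differed by 0.04 to 0.53, where 58.8% of all probe sets had a higher mean in mutant vertebrae, and 0 passed. Without mutant vertebrae 1, 4 of these 6 were higher and the differences were -0.16 to 0.73. Other markers moved in this comparison as well. All 15 neuronal genes (median -1.06) and all 8 liver genes (median -1.68) had a lower mean in mutant vertebrae, and 14 of 15 cartilage genes a higher one (median 0.29). Of 12 fibrous disc genes, 10 were lower and 2 higher (median -0.41), with Fmod at -1.65, and at -1.23 without mutant vertebrae 1. By limma, 5 of their 28 probe sets were lower at an unadjusted p under 0.05, where 0.873% of all were, and 0 reached the adjusted threshold. Without control vertebrae 3 the Erg difference was -2.11 (adjusted p = 0.939 by limma), and the part of these markers was not tested.

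The genes most like each member were found by Pearson correlation across the 13 arrays. These correlations describe arrays that share groups, and groups make up part of them. Erg was most like Adgrg6 (r = 0.956), Fmod (0.951), which encodes the collagen-binding fibromodulin, Col14a1 (0.942), Tspan6 (0.936) and Nupr1 (0.929). Trps1 1434286_at was most like Wif1 (0.977), a secreted Wnt inhibitor, Adamts6 (0.966), Tob1 (0.965), Nfib (0.964) and Col14a1 (0.961). Nfatc1 1417621_at was most like Tgfb3 (0.980), a TGF-β ligand, Adamts6 (0.963), Ndnf (0.959), Loxl1 (0.956) and Nfib (0.956). Barx1 was most like Kcnt2 (0.945), Ninj1 (0.937), Dag1 (0.931), Csnk1d (0.920) and Ldlrad4 (0.912). Osr1 and Osr2 both had S1pr2 (0.949 and 0.927) and Plod1 (0.944 and 0.932), a collagen lysyl hydroxylase, among their 5. Nfatc4 was most like Arhgef40 (0.918) and had Pmepa1 (0.907), a TGF-β target, among its 5. Nfatc2 1439205_at was most like Mbnl2 (0.919). This probe set correlated with the other Nfatc2 probe sets at only -0.373 to 0.061, so it does not stand for the gene. With Nfatc1 1417621_at it correlated at 0.226, and the other Nfatc2 probe sets at -0.863 to 0.008.

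The members were also set against the mean of the 12 fibrous disc genes, some of which are named above. Several of these, such as Fmod, Tgfb3 and Col14a1, are IVD-enriched genes of the study, found on these same control arrays. So are Erg, Trps1, Nfatc1 and Barx1. Their correlations over arrays of both tissues were therefore partly built in, and nothing is read from their size. Correlations within groups were not computed for this list. The list mean correlated with Erg at r = 0.90, Trps1 1434286_at at 0.97, Nfatc1 1417621_at at 0.97 and Barx1 at 0.83. It correlated with Osr1 at 0.76, Osr2 at 0.72, Nfatc4 at 0.70 and Nfatc2 1439205_at at 0.35. The list mean was 0.45 to 1.20 in mutant IVD 1, 2 and 4 and -1.28 in mutant IVD 3, against 0.61 to 1.47 in control IVD. In mutant vertebrae it was -1.47 to -0.14, and in control vertebrae -0.68 to 0.06. The 2 arrays with the lowest list mean, mutant vertebrae 1 and mutant IVD 3, were also the 2 lowest for Erg, Trps1 1434286_at and Nfatc1 1417621_at. With the mean of 15 neuronal genes the same probe sets correlated at -0.31, -0.54 and -0.40. With 17 endothelial genes, which matter for Erg as a factor of endothelium, Erg correlated at -0.07. The part of these lists in the differences was not tested.

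**Figure D4:**
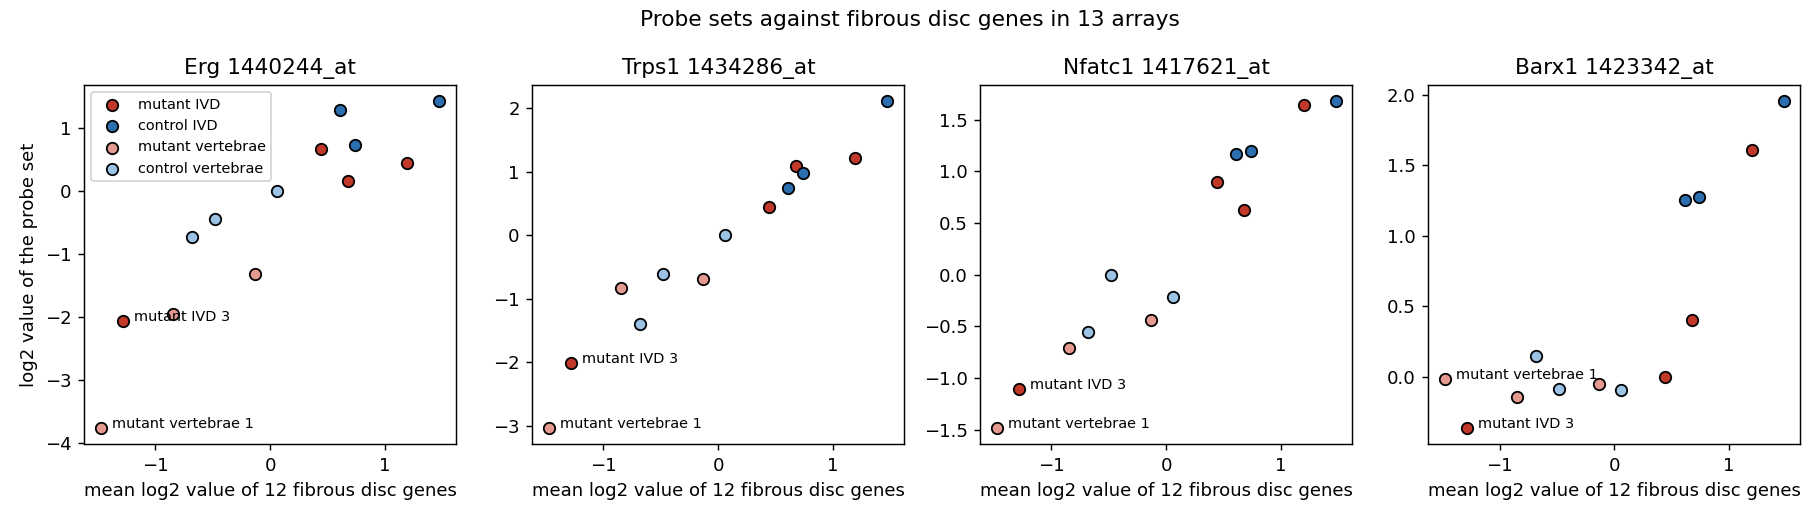
Log2 value of 1 probe set each of Erg, Trps1, Nfatc1 and Barx1 (vertical axes) against the mean log2 value of 12 fibrous disc genes (horizontal axes) in the 13 arrays, coloured by group. The 2 labelled arrays have the lowest list means, -1.28 and -1.47, and low values of the first 3 genes, while Barx1 is flat over all vertebrae.

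The partners of these factors were described from lists of their families and pathways, over genes averaged across probe sets. Of 22 genes of calcium, calcineurin and NFAT signalling, 10 were higher and 12 lower in control IVD relative to control vertebrae (median -0.004, against -0.01 over all genes). Homer2, which encodes a scaffold protein that can bind NFAT, differed by 0.76 there. Rcan2, a calcineurin inhibitor, differed by -0.65, and by -0.25 without control vertebrae 3 or -0.36 without control IVD 2. Between mutant and control IVD it differed by 0.84, and by 0.46 without mutant IVD 3 or 0.54 without control IVD 2. Gsk3b, a kinase that returns NFAT to the cytoplasm, differed by 0.61 between mutant and control IVD. Among 21 ETS genes other than Erg, 12 were higher and 9 lower in control IVD (median 0.01), with Ets2 at 0.81. The medians of both lists lay near that of all genes.

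Lists closer to the joint and to TGF-β had higher medians in control IVD. Several of their genes, such as Gdf5, Vcan, Fmod and Adamtsl2, are IVD-enriched genes of the study, found on these same control arrays. Nothing is therefore read from their counts or medians between the control tissues. Of 18 interzone and articular genes, 14 were higher in control IVD (median 0.65, against -0.01 over all genes), led by Gdf5, a ligand of joint interzones, at 3.08. Gdf5 differed by -1.51 between mutant and control IVD and Jun by 0.71, and without mutant IVD 3 by -0.76 and 1.17. Of 14 TGF-β response genes, all 14 were higher in control IVD (median 0.93), with Mkx, a tendon and disc homeobox factor, at 2.10. Between mutant and control IVD, 9 of these 14 were lower (median -0.11, against 0.04 over all genes), with Fmod at -0.91 and Ltbp2 at 0.68. Without mutant IVD 3 these were -0.31 and 1.04, Fmod was -0.49 without control IVD 2, and Ltbp2 was 0.23 without mutant IVD 4. In mutant IVD against mutant vertebrae, 13 of their 28 probe sets were higher at an unadjusted p under 0.05, where 4.35% of all probe sets were, and 0 reached the adjusted threshold by limma, where 0.0155% of all probe sets did.

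Partners of Trps1 and other homeobox genes were mixed. Of 18 hedgehog, GATA and hypertrophy genes, 9 were higher and 9 lower in control IVD (median -0.02), with Pth1r, the receptor for parathyroid hormone and its related peptide, at -1.08 and Gli1, a hedgehog target, at 0.48. Gata1, an erythroid factor, differed by -0.80 between mutant and control IVD, and by 0.40 without control IVD 1, an array with high liver genes. Of 18 homeobox genes of axial and joint mesenchyme, 7 were higher and 11 lower in control IVD (median -0.06), with Meox1 at 0.60 and Prrx1 at -0.55 (-0.36 without control IVD 2). In mutant against control IVD, Prrx2 differed by 0.59 and Irx5 by -0.52, and without mutant IVD 1 by 0.31 and -0.20. Irx5 differed by -0.10 without control IVD 1 and by -0.82 without control IVD 3. These values with single arrays left out were computed after seeing the data. Over these 6 lists, 0 probe sets reached the adjusted threshold by limma in mutant IVD against mutant vertebrae or in mutant against control vertebrae.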

How the data were processed

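The authors deposited 1 table of log2 values for Affymetrix mouse expression arrays. According to the methods, background was subtracted and RMA normalization run at the default settings of GeneSpring, from RNA amplified in 2 cycles. Every row is centred on a median of 0, so neither level nor signal over background can be known, and precision is limited by how few arrays there are. Of 45101 probe sets, 64 control probe sets were left out. Symbols came from the platform annotation, where 34945 probe sets carried 1 symbol, 932 several and 9160 none.

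A model of the 4 groups was fitted to all 45037 probe sets with limma 3.58.1 in R 4.3.3 (lmFit and eBayes, two-sided), with Benjamini-Hochberg adjustment and a threshold of 0.05, and was tested on simulated data. The methods name an analysis of variance assuming unequal variance, which was run as an alternative. The members and gene lists were chosen with earlier results of these data known. Named in full were the probe sets in the study's tables of IVD-enriched or Tgfbr2-regulated genes, otherwise the one with the largest SD; for each, the 5 genes of highest Pearson r were named, and up to 4 genes per list with the largest differences.

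Whether array numbers pair the tissues was checked by correlating deviations from group means. Same-numbered control arrays had r = 0.801, 0.569 and 0.567, and mutant arrays -0.405, 0.243 and -0.146. Control tissues came from the same mice per the labels, and numbers were used as pairs only there. Alternatives used the number as a block, including a block shared by control and mutant arrays. Nothing was pooled, and p-values measure the spread between these arrays.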

Additional observations from a re-analysis of the deposited data

Results flagged for a closer look

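4 values of the 25 probe sets in mutant IVD (n = 4) lay far from the rest of their group, by a gap larger than the critical value of Dixon's test allows. Chance flags about 1 in 20 such groups. Trps1 1438214_at was low in mutant IVD 3, at -1.64, the array with high neuronal and low fibrous disc genes. Osr1 1449350_at and Osr2 1426155_a_at were high in mutant IVD 1, at 1.65 and 1.53, where Nfatc4 1423379_at and Barx1 also had their highest mutant IVD values of 1.74 and 1.61. Nfatc2 1425901_at was low in the same array, at -0.49, against 0.08 to 0.12 in the other mutant IVD. Groups of 3 arrays were not examined in this way.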

How the results depend on the processing

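The count of probe sets called in mutant IVD against mutant vertebrae, 7, was 0 in the fit of the 2 groups alone, by the unequal-variance test and on adjusting for the endothelial mean, 55 with array weights and 105 with the neuronal mean as a covariate. Leaving out 1 array gave 0 to 177, the highest without mutant IVD 3, and leaving out both mutant IVD 3 and mutant vertebrae 1 gave 78. With the array number as a replicate block this count was 0. Whether numbers pair the tissues in mutants is not known. Same-numbered mutant arrays were alike in Xist and Y-linked genes. Their deviations from group means correlated at -0.405, 0.243 and -0.146, the first and last with an array that stood apart. The 0 calls in mutant against control vertebrae stayed 0 under every alternative run. Of the 8 probe sets at least 2-fold higher in control IVD, 5 were left with the neuronal covariate, and leaving out 1 control array gave 6 to 9. The 3 probe sets at least 2-fold lower in mutant IVD became 5 with quantile normalization and 0 with the neuronal covariate, 0 to 5 on leaving out 1 array, and 0 without both arrays named above. The cause was not tested.

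Of 630 alternative values of single probe sets, 598 kept their direction and side of the threshold in the tested comparisons or moved by under 1 SD in the others, 8 moved by more, 7 passed a threshold the main value missed, and 17 changed sign in the tested comparisons. Over all 4 comparisons 37 had the other sign. The SD was the larger of those of the groups compared, and no main value passed the threshold, so large changes could count as kept. Trps1 1434286_at in mutant against control vertebrae, -0.85, and -0.09 without mutant vertebrae 1, counted so. The 598 is therefore not a measure of stability. In mutant against control vertebrae, Trps1 1438214_at was 0.033 with quantile normalization, 0.076 without both arrays, and -0.632 to 0.089 on leaving out 1 array. Nfatc1 1428479_at was 0.048 with quantile normalization, 0.357 with array weights, 0.394 without both arrays, and -0.696 to 0.394 on leaving out 1 array. Nfatc4 1423379_at was 0.028 with array weights, 0.057 as the mean of its probe sets, 0.003 without both arrays, and -0.296 to 0.003 on leaving out 1 array. The same range was -0.102 to 0.02 for Barx1 and -0.182 to 0.032 for Osr2 1426155_a_at. In mutant IVD against mutant vertebrae, Nfatc2 1439205_at was 0.047 with the neuronal covariate and -0.453 to 0.004 on leaving out 1 array. Averaging all probe sets of a gene reduced the difference between control tissues to 0.80 for Erg and 0.26 for Osr2.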
